A study of Mus musculus with 2 samples.

Results

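The Wnt ligands and secreted Wnt antagonists examined here are 10 genes, taken by symbol from the 32285 genes listed for both libraries. They comprise 6 ligands, *Wnt3*, *Wnt4*, *Wnt5a*, *Wnt10a*, *Wnt10b* and *Wnt11*, and 4 antagonists, *Dkk3*, *Sfrp1*, *Sfrp2* and *Wif1*. Their mRNA was followed through the epithelial and stromal cell classes of back skin and of the preputial gland (PG), a sebaceous-like gland of male rodents that has served as a stand-in for the sebaceous glands (SGs) of skin. The animals were male wild type C57BL/6 mice aged 52 weeks. Back skin biopsies or PG samples from 3 mice were pooled into 1 droplet-based single-cell library per tissue. No treatment or engineered allele is named, and both tissues came from the same animals. With 1 library per tissue there is no replicate error, so no test was run and no p-value is given. Intervals, where given, are exact 95% intervals and cover the error of counting alone. The difference between tissues cannot be told apart from the difference between libraries.

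Wnt proteins are lipid-modified secreted signals that bind Frizzled receptors, together with the co-receptors Lrp5 and Lrp6 when the signal runs through β-catenin and the TCF/LEF transcription factors. Sfrp proteins and Wif1 bind Wnt proteins outside the cell, whereas the Dickkopf family acts mainly at the co-receptors, and Dkk3 is its divergent member, with a less settled role. In skin, Wnt signals maintain the basal epidermis, start hair follicle (HF) growth and drive the hair matrix, and the balance of β-catenin signalling is known to steer progenitors between the hair and sebocyte (SEB) fates.

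The skin library held 8899 cells and the PG library 4699 cells with at least 500 genes, at least 1000 unique molecular identifiers (UMIs) and at most 10% mitochondrial UMIs, and no cell barcode was shared between them. The median depth was 2386 UMIs per skin cell and 2729 per PG cell. Classes were gated on marker genes that include none of the members, and levels are UMIs of a gene per 1000000 UMIs of a class (CPM). Levels are compared between classes for 1 gene, not between genes. Skin gave 6957 epithelial cells, 1033 fibroblast-like cells and 39 dermal papilla-like cells, and PG gave 3572 epithelial and 636 fibroblast-like cells. Hair matrix-like (319), inner root sheath-like (400) and dermal papilla-like cells were found in skin and in none of the PG cells. Skin held 34 SEB-like cells against 847 in PG, so SEB-like values of skin rest on few UMIs. The PG cells that passed the gate for outer sheath and bulge (119) had 0 UMIs of *Lhx2*, *Lgr5*, *Krt24*, *Grem1* and *Fgf18*. They are therefore called *Krt15 Krt6a Sox9* cells. Of the other markers of the gate, they held *Cd34* at 132 CPM (49 UMIs), against 47.7 CPM in all other PG cells, and 4 UMIs of *Krt75*. Basal keratinocyte-like cells passed the same gate in both tissues with unequal keratin levels, at 7729 CPM of *Krt14* in skin and 1986 CPM in PG, where all other cells held 1702 CPM. The other markers of this gate set the PG class further apart. *Krt5* stood at 1410 CPM against 413 CPM in all other PG cells, *Col17a1* at 212 against 40.1 CPM and *Itga6* at 294 against 85.1 CPM.

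Over all kept cells, all 10 genes were detected in skin, from 185 UMIs of *Wnt11* to 3798 UMIs of *Wnt4*. In PG, *Wif1* had 0 UMIs, which allows a level of up to 3 counts in the library, and *Wnt3* had 3 UMIs, against 644 and 965 in skin. *Sfrp2*, in contrast, was found in both tissues and almost wholly in fibroblast-like cells. The sequence before the start of these 3 genes is given because they mark the extremes of the set, all but absent from 1 library or all but limited to fibroblast-like cells in both. The stretches are from the RefSeq promoter set on GRCm38.p6, plus strand, and stop before the first base of the gene in the GENCODE annotation. Capitals mark the TCF/LEF core word CTTTG, searched together with its reverse complement CAAAG, which do not overlap each other.
Wnt3, chr11:103773925-103774149: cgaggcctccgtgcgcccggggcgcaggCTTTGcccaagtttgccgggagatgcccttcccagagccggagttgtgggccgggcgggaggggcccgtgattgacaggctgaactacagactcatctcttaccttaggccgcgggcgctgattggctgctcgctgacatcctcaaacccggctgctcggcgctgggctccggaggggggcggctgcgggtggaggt
Wif1, chr10:121033754-121033959: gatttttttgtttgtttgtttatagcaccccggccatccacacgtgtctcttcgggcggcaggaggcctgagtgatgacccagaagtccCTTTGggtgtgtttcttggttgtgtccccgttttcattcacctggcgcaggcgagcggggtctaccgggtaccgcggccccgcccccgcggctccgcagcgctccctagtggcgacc
Sfrp2, chr3:83766071-83766320: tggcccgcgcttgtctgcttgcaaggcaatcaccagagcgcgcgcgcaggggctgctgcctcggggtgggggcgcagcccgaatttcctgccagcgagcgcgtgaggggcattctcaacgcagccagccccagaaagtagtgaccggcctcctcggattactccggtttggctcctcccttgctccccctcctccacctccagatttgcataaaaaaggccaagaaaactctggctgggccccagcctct
The word occurred once in the *Wnt3* stretch and once in that of *Wif1*, and not in that of *Sfrp2*. It occurred in 48.6% of the 32841 upstream windows of 250 bases in the whole set, so its presence sets none of these genes apart. Of the 10 members 6 had an entry, with CTTTG in 3 of their 7 windows, and the longer word CTTTGA was found in 1 of these windows, that of 1 of the starts of *Wnt11*, against 13.8% of all windows. These are letter matches and say nothing about binding.

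*Wnt3*, *Wnt4* and *Wnt10a* were ligands of the keratinocytes. *Wnt3* (ENSMUSG00000000125, chr11:103774150-103817957), a ligand known to act through β-catenin, stood at 59.6 CPM (54.3 to 65.2, 471 UMIs) in basal keratinocyte-like cells of skin. Hair matrix-like cells followed with 55.9 CPM (44.5 to 69.3) and suprabasal cells with 50.4 CPM (44.8 to 56.4). These top 3 classes overlapped in their intervals with their neighbours in the order, and the next class, the outer sheath and bulge-like cells, was lower at 13.5 CPM (8.5 to 20.2). Within the hair-forming cells the level was uneven, since inner root sheath-like cells held 3.9 CPM (1.4 to 8.4), which lies within the range of immune-like cells at 5.4 CPM (1.1 to 15.9). In PG, 0 UMIs of *Wnt3* were counted among 4692341 UMIs of basal keratinocyte-like cells and 0 among 4488517 UMIs of SEB-like cells, which allows levels of up to 0.639 and 0.668 CPM (3 counts).

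*Wnt4* (ENSMUSG00000036856, chr4:137277489-137299726), a ligand of epithelia in many organs, was spread over nearly all epithelial classes of skin. In skin it reached 216 CPM (206 to 226, 1707 UMIs) in basal keratinocyte-like and 193 CPM (171 to 216) in hair matrix-like cells. It was lower in inner root sheath-like cells, at 126 CPM (109 to 145), in suprabasal cells, at 123 CPM (114 to 132), and in upper follicle and duct-like cells, at 57.9 CPM (48.0 to 69.3). After each cell was thinned to 1000 UMIs, 19.4% of basal keratinocyte-like cells (18.0 to 20.9) had a UMI of *Wnt4* against 2.52% of immune-like cells, with unthinned shares of 39.0% and 2.88% at median depths of 2494 and 1718 UMIs. The order in PG was another. There the duct-like cells held 42.3 CPM (34.1 to 51.9) and the basal keratinocyte-like cells 32.8 CPM (27.8 to 38.4), with overlapping intervals, whereas SEB-like cells held 6.9 CPM (4.7 to 9.8), no more than the 7.9 CPM (2.2 to 20.3) of immune-like cells.

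*Wnt10a* (ENSMUSG00000026167, chr1:74791516-74804179) is known for its part in teeth, nails and skin appendages. It was highest in basal keratinocyte-like cells of skin, at 78.3 CPM (72.3 to 84.7), above hair matrix-like cells at 51.2 CPM (40.3 to 64.0). It dropped 3.99-fold from basal to suprabasal cells, which held 19.6 CPM (16.2 to 23.5), whereas *Wnt3* differed 1.18-fold between the same classes. In PG, *Wnt10a* stood at 29.0 CPM (24.3 to 34.3) in basal keratinocyte-like cells and at 6.0 CPM (4.0 to 8.8) in SEB-like cells, a 4.82-fold difference. The *Krt15 Krt6a Sox9* cells held 45.9 CPM (26.7 to 73.5, 17 UMIs), overlapping with the basal cells.

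*Wnt10b*, *Wnt5a* and *Wnt11* were found in stroma and in separate parts of the follicle. *Wnt10b* (ENSMUSG00000022996, chr15:98770712-98778150), the closest relative of *Wnt10a* and known from growing hair follicles, was highest in the fascia fibroblast-like cells marked by *Pi16* and *Dpp4*. These held 69.7 CPM in skin (54.7 to 87.5, 74 UMIs) and 38.3 CPM in PG (20.9 to 64.3, 14 UMIs). Reticular fibroblast-like cells, marked by *Mgp* and *Gpx3*, held 9.5 CPM (3.8 to 19.6) and 2.1 CPM (0.1 to 11.9). Fascia cells were thus 7.34-fold above reticular cells in skin (log2 interval 1.76 to 4.24) and 17.96-fold in PG (1.45 to 9.57, 14 against 1 UMI). The second site was the hair matrix-like class of skin, with 39.7 CPM (30.2 to 51.2). None of the 3572 epithelial cells of PG had a UMI of *Wnt10b*, which allows up to 0.084% of cells with a captured UMI and does not bound the cells that express the gene.

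*Wnt5a* (ENSMUSG00000021994, chr14:28504750-28527448), the best-known ligand of β-catenin-independent signalling, was highest in the 39 dermal papilla-like cells, at 282 CPM (189 to 405, 29 UMIs). The 184 skin cells that passed no gate held 140 CPM (108 to 178, 66 UMIs) and are left out of the order of classes. Of the gated classes with at least 30 cells, the fibroblast-like ones of skin followed at 58.4 to 85.5 CPM. Inner root sheath-like cells at 84.5 CPM (70.6 to 100.2), epithelial cells without a finer gate at 71.4 CPM (59.8 to 84.5) and hair matrix-like cells at 58.6 CPM (46.9 to 72.2) lay in the same range, and neighbours in this order overlapped. Basal keratinocyte-like cells were lower, at 19.0 CPM (16.1 to 22.3), and upper follicle and duct-like cells held 1.0 CPM (0.1 to 3.5). In PG, fascia fibroblast-like cells led with 68.4 CPM (44.3 to 101.0), and basal keratinocyte-like and SEB-like cells held 4.7 CPM (2.9 to 7.1) and 1.1 CPM (0.4 to 2.6). Hair matrix-like and inner root sheath-like cells, which PG did not hold, had 218 of the 576 epithelial UMIs of *Wnt5a* in skin.

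*Wnt11* (ENSMUSG00000015957, chr7:98835112-98855195), a further ligand of β-catenin-independent signalling, was sparse. In skin, fascia fibroblast-like cells held 21.7 CPM (13.7 to 32.5) and inner root sheath-like cells 18.7 CPM (12.5 to 26.9), neither of which can be told from the 16.3 CPM (7.5 to 31.0) of immune-like cells at this depth. Upper follicle and duct-like cells held the most UMIs of a class, 32, at 15.6 CPM (10.6 to 22.0), in the same range. Basal and suprabasal keratinocyte-like cells were lower, at 1.1 CPM (0.5 to 2.2) and 1.2 CPM (0.5 to 2.4). Within the outer sheath and bulge-like class, its 32 cells with a UMI of *Krt75*, the keratin of the companion layer, held 21 of the 23 UMIs of *Wnt11*, at 142 CPM (87.8 to 217). The 23 UMIs lay in 9 of the 715 cells of the class, up to 6 in 1 cell, so few cells carry this level. In PG, fascia fibroblast-like cells held 65.7 CPM (42.1 to 97.7, 24 UMIs), while immune-like cells had 0 UMIs.

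**Figure D1:**
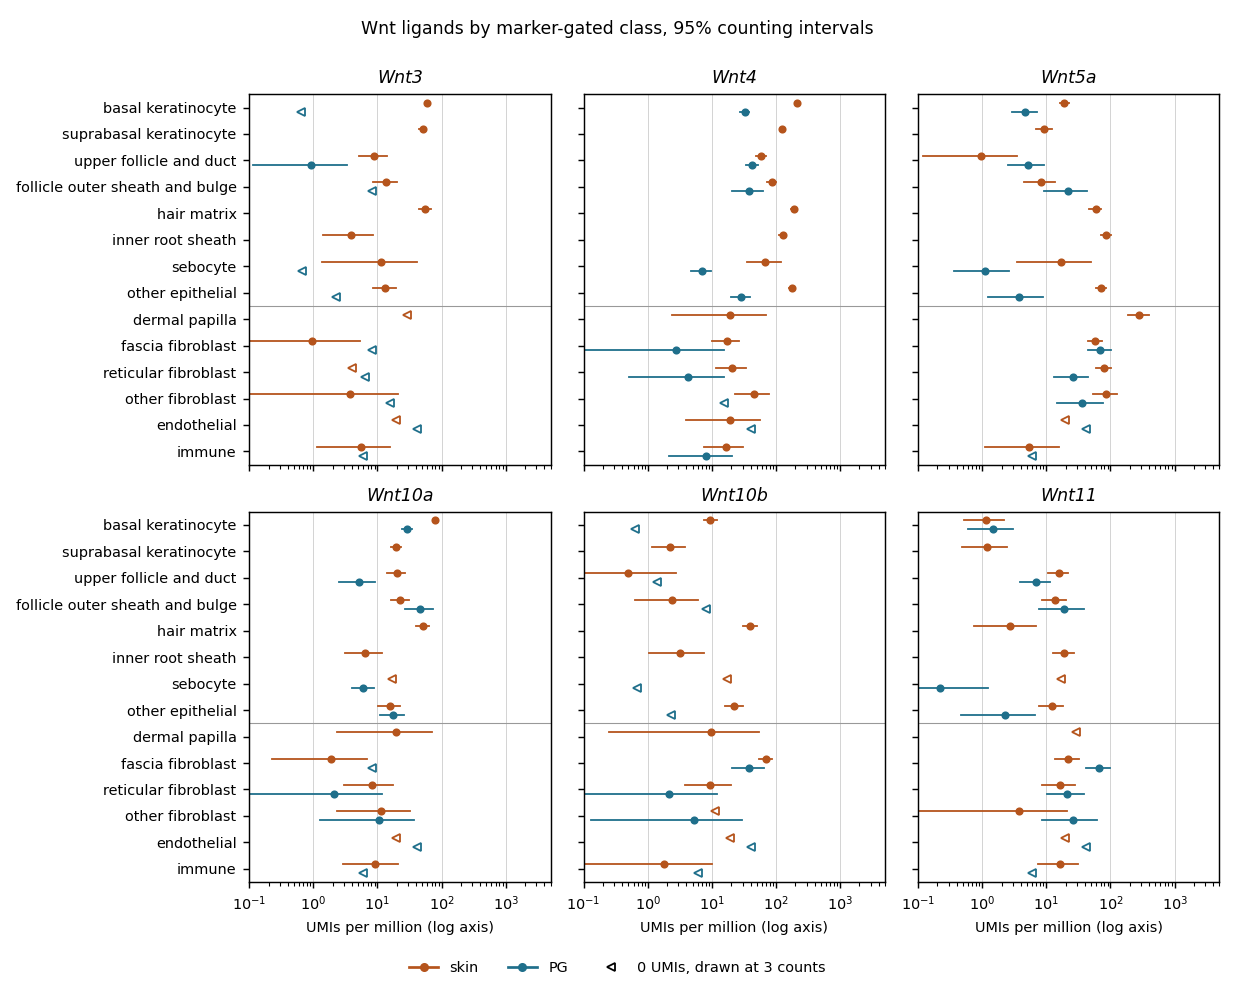
Level of each Wnt ligand (CPM, log axis) in each marker-gated class of at least 30 cells, in skin (orange) and PG (blue), with points for the level, lines for the 95% counting interval, cut at the axis edge, and open triangles for classes with 0 UMIs, drawn at 3 counts; the PG values in the outer sheath and bulge row are the *Krt15 Krt6a Sox9* cells. *Wnt3*, *Wnt4* and *Wnt10a* sit highest in skin keratinocytes, with *Wnt4* at 216 CPM in basal cells of skin and 32.8 CPM in those of PG, whereas *Wnt5a* is highest in dermal papilla-like cells.

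Among the antagonists, *Sfrp2* was the purest stromal gene and *Sfrp1* was shared by stroma and epithelium. *Sfrp2* (ENSMUSG00000027996, chr3:83766321-83774316), a secreted Frizzled-related protein that also marks dermal fibroblasts, stood at 405 CPM (368 to 445, 430 UMIs) in fascia and at 294 CPM (257 to 336) in reticular fibroblast-like cells of skin. In PG the same classes held 1143 CPM (1036 to 1258) and 874 CPM (792 to 963). Basal keratinocyte-like cells held 1 UMI in skin and 2 UMIs in PG, and SEB-like cells of PG 5 UMIs. Thinned to 1000 UMIs, 28.1% of fascia fibroblast-like cells of skin (24.2 to 32.3) and 55.8% of those of PG (49.2 to 62.4) had a UMI, against 0 of 278 immune-like cells of skin and 0 of 223 of PG, which allows shares of up to 1.08% and 1.35%. The unthinned shares were 39.8% and 67.5%, at median depths of 1927 and 1421 UMIs in fascia cells and 1718 and 1931 in immune-like cells.

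*Sfrp1* (ENSMUSG00000031548, chr8:23411502-23449632), which binds Wnt proteins through a Frizzled-like domain, reached 594 CPM (454 to 763, 61 UMIs) in dermal papilla-like cells of skin. Reticular fibroblast-like cells at 339 CPM (298 to 384) and outer sheath and bulge-like cells at 333 CPM (306 to 361) came next and overlapped. Fascia fibroblast-like cells of skin were lower, at 85.7 CPM (69.0 to 105.2), and basal keratinocyte-like cells held 46.3 CPM (41.7 to 51.3). PG differed in its epithelium. Basal keratinocyte-like cells of PG held 300.5 CPM (285 to 317, 1410 UMIs) and SEB-like cells 148 CPM (137 to 160, 664 UMIs), whereas its duct-like cells, at 35.3 CPM (27.8 to 44.2), were no higher than immune-like cells at 49.7 CPM (32.1 to 73.3). Barcodes of at most 100 UMIs, which hold free RNA, gave 73.8 CPM of *Sfrp1* in PG and 29.3 CPM in skin. A UMI of *Sfrp1* was found in 24.8% of thinned basal cells of PG (22.7 to 27.0) and in 3.14% of thinned immune-like cells, or in 52.7% and 6.28% before thinning, at median depths of 2735 and 1931 UMIs. In skin, 4.35% of thinned basal cells had one, and 8.44% before thinning. The 34 SEB-like cells of skin held 1 UMI of *Sfrp1*, a level of 5.6 CPM (0.1 to 31.4), so that PG SEB-like cells were 26.2-fold higher, with a log2 interval of 2.23 to 10.02.

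*Dkk3* (ENSMUSG00000030772, chr7:112116017-112159057) was highest, among classes of at least 30 cells, in the outer sheath and bulge-like cells of skin, at 145 CPM (127 to 164, 247 UMIs). This was 12.6-fold above basal keratinocyte-like cells, which held 11.5 CPM (9.3 to 14.1). Thinned, 16.4% of the cells (13.7 to 19.3) had a UMI against 0 of 278 immune-like cells, and before thinning 25.9% and 0.36%, at median depths of 1791 and 1718 UMIs. Its 358 cells with a UMI of *Cd34*, a marker of bulge stem cells, held 223 CPM (190 to 259), and its 32 cells with *Krt75* held 13.5 CPM (1.6 to 48.8). The level was 81.3 CPM when cells of fewer than 1000 genes or 2000 UMIs were left out. Of the smaller classes of skin, the 23 melanocyte-like cells held 179 CPM of *Dkk3* (105 to 287), with 17 UMIs in 12 of the cells. The 14 contractile fibroblast-like cells held 146 CPM (47.5 to 341) on 5 UMIs. Both intervals overlap that of the outer sheath and bulge-like cells. In PG, 41 UMIs were counted in all, with 27.7 CPM (14.8 to 47.4) in reticular fibroblast-like cells and 0 UMIs in SEB-like cells.

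*Wif1* (ENSMUSG00000020218, chr10:121033960-121100650), the Wnt inhibitory factor, was the clearest dermal papilla gene of the set. The 39 dermal papilla-like cells held 258 of its 644 UMIs in skin, a level of 2511 CPM (2214 to 2837), and 30 of these cells had a UMI, with no cell above 21. Thinned, 64.1% of them (47.2 to 78.8) had a UMI against 0 of 278 immune-like cells, and before thinning 76.9% and 0.72%, at median depths of 2229 and 1718 UMIs. The remaining fibroblast-like cells held 10.9 CPM, close to the 14.7 CPM of free RNA, and 16 of their 23 UMIs lay in the fibroblast-like cells that passed no finer gate. The 184 skin cells that passed no gate held 74.1 CPM (51.6 to 103, 35 UMIs). In the epithelium, cells without a finer gate held 53.8 CPM (43.8 to 65.4), hair matrix-like cells held 36.4 CPM (27.3 to 47.4) and outer sheath and bulge-like cells 33.4 CPM (25.3 to 43.3). In the hair matrix-like class the 54 UMIs lay in 14 of 319 cells, 14 of them in 1 cell. PG held 0 UMIs in any class.

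**Figure D2:**
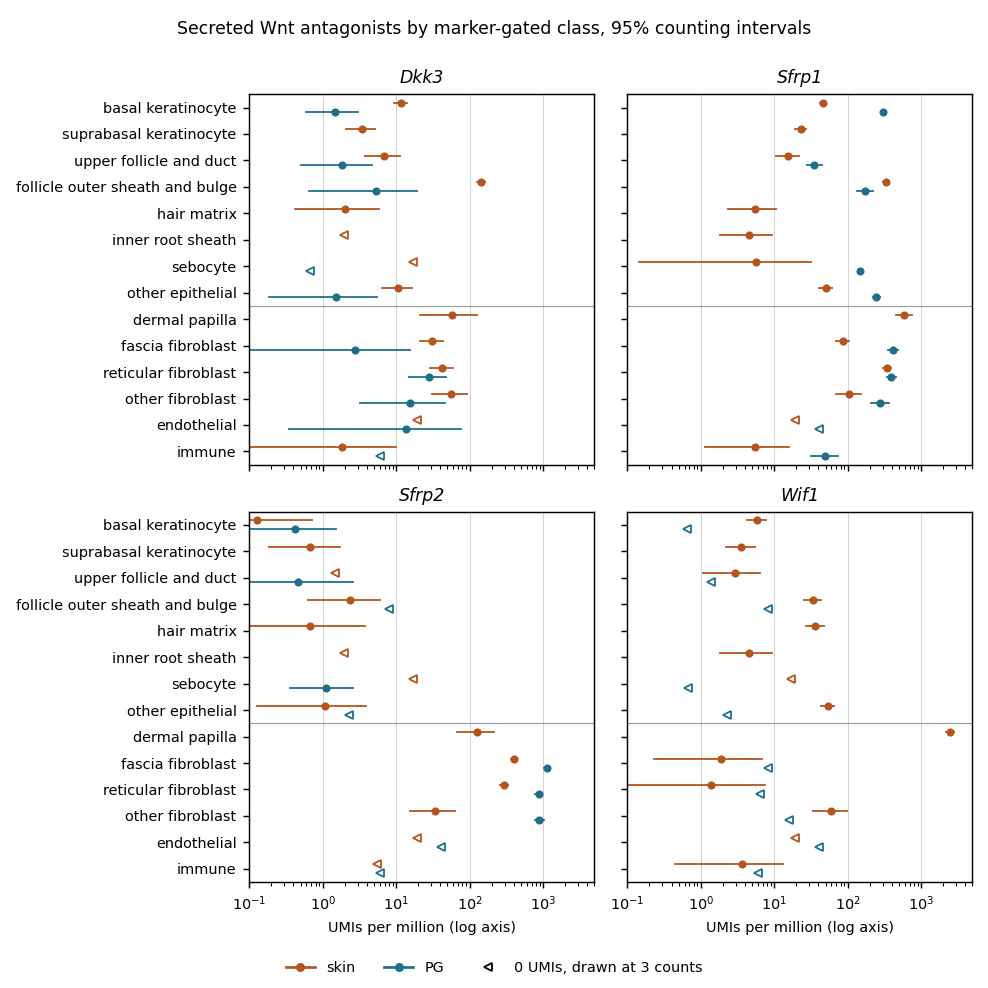
Level of each secreted antagonist (CPM, log axis) in each marker-gated class of at least 30 cells, in skin (orange) and PG (blue), drawn as points with 95% counting intervals and open triangles at 3 counts for classes with 0 UMIs. *Sfrp2* sits in the fibroblast-like classes of both tissues, *Wif1* peaks at 2511 CPM in dermal papilla-like cells and has 0 UMIs in PG, and *Sfrp1* is at 300.5 CPM in basal cells of PG against 46.3 CPM in those of skin.

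Counted as shares of UMIs, the class sizes also weigh in. Epithelial cells held 82.7% of all UMIs of kept skin cells and 96.0% of those of *Wnt3*, 92.9% of *Wnt4* and 94.2% of *Wnt10a*. They held 1.59% of the UMIs of *Sfrp2*, of which fibroblast-like cells had 86.9% with 7.67% of all UMIs. Dermal papilla-like cells, with 0.375% of all UMIs, held 40.1% of the *Wif1* UMIs, 3.51% of the *Sfrp1* and 3.39% of the *Wnt5a* UMIs. The much larger epithelial group held 45.3% of the *Wif1* UMIs of skin. In PG, epithelial cells held 85.3% of all UMIs and 83.0% of those of *Sfrp1*, while fibroblast-like cells, with 6.87%, held 94.1% of *Sfrp2* and 16 of the 17 UMIs of *Wnt10b*.

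**Figure D3:**
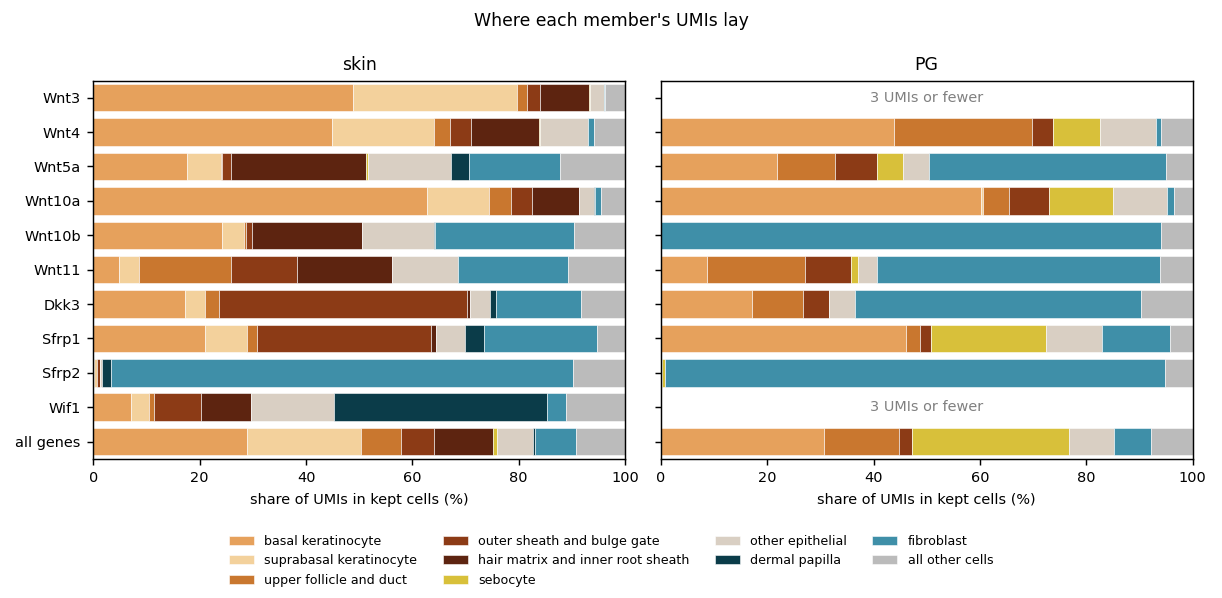
Share of each member's UMIs (%, stacked to 100) that lay in each group of classes, in skin and PG, with the last bar giving the share of all genes' UMIs for scale. *Sfrp2* UMIs lie almost wholly in fibroblasts in both tissues, 40.1% of *Wif1* UMIs in skin lie in the dermal papilla-like class, and *Wnt3* and *Wif1* have 3 UMIs or fewer in PG.

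The comparison of fibroblast-like with epithelial cells within a library asks which side of the tissue held each gene. Each ratio is free of differences between libraries, but a comparison of the ratios of skin and PG is not. In skin, 6 of the 10 members were at least 2-fold higher in fibroblast-like cells, *Wnt5a*, *Wnt10b*, *Wnt11*, *Dkk3*, *Sfrp1* and *Sfrp2*, against 23.1% of the 14798 genes with at least 10 UMIs over both groups. A further 3, *Wnt3*, *Wnt4* and *Wnt10a*, were at least 2-fold lower, against 19.1% of those genes. Of the 6 higher members, *Wnt11* stood at 18.1 CPM (12.8 to 24.8) in fibroblast-like cells. This level could not be told from the 16.3 CPM (7.5 to 31.0) of immune-like cells. *Wif1* differed 1.18-fold, with the dermal papilla-like cells standing outside both groups. In PG, 5 of the 8 members that could be compared were higher in fibroblast-like cells, *Wnt5a*, *Wnt10b*, *Wnt11*, *Dkk3* and *Sfrp2*, against 24.8% of 13262 genes. *Wnt4* and *Wnt10a* were lower, 2 members against 17.3% of genes, and *Sfrp1*, at 371 CPM in fibroblast-like and 195 CPM in epithelial cells, stayed under 2-fold at 1.91. The median log2 ratio over the members was 1.33 in skin and 3.74 in PG, and over all genes compared -0.06 and 0.02.

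The largest difference was that of *Sfrp2*, whose log2 ratio was 9.20 (8.39 to 10.16) in skin and 10.62 (9.63 to 11.83) in PG. The log2 ratio of *Wnt5a* was 1.46 (1.19 to 1.72) in skin and 3.45 (2.84 to 4.06) in PG, that of *Wnt11* was 1.69 (1.13 to 2.22) and 4.02 (3.33 to 4.72), and that of *Dkk3* 1.20 (0.84 to 1.54) and 4.19 (3.18 to 5.24). For these 3 genes the intervals of the tissues did not overlap. Except for *Dkk3* in skin, however, their epithelial levels could not be told from free RNA. In skin they were 25.4 CPM against 22.8 CPM of free RNA for *Wnt5a*, 5.6 against 5.4 for *Wnt11* and 17.4 against 11.6 for *Dkk3*. In PG they were 3.9 against 3.9, 2.5 against 2.7 and 1.2 against 2.7 CPM. How much of these epithelial levels was free RNA was not tested. For *Dkk3* the epithelial levels differed more, 15.1-fold, with 17.4 CPM in skin and 1.2 CPM in PG, than the fibroblast-like levels, which differed 1.90-fold. For *Wnt5a* these differences were 6.49-fold and 1.63-fold, both toward skin, whereas *Wnt11* was 2.21-fold lower in PG epithelium and 2.27-fold higher in PG fibroblast-like cells. The epithelial levels pool different classes in the tissues. In skin, outer sheath and bulge-like cells held 247 of the 395 epithelial UMIs of *Dkk3*. Hair matrix-like and inner root sheath-like cells, not found in PG, held 218 of the 576 of *Wnt5a*. The part of class composition in these folds was not tested. On the other side, *Wnt4* had a log2 ratio of -2.86 (-3.32 to -2.44) in skin and -3.13 (-5.42 to -1.57) in PG, and *Wnt10a* of -2.97 (-3.98 to -2.12) and -2.53 (-4.82 to -0.96), with overlapping intervals. The call of *Dkk3* in skin was lost at a log2 ratio of 0.51 when each cell weighed the same at 0.84 when each epithelial class weighed the same and at 0.98 without mitochondrial and ribosomal protein genes, while the ratio was 2.40 in cells of at least 1000 genes and 2000 UMIs. The call of *Wnt11* in skin was lost at 0.97 in cells of at least 1000 genes and 2000 UMIs.

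**Figure D4:**
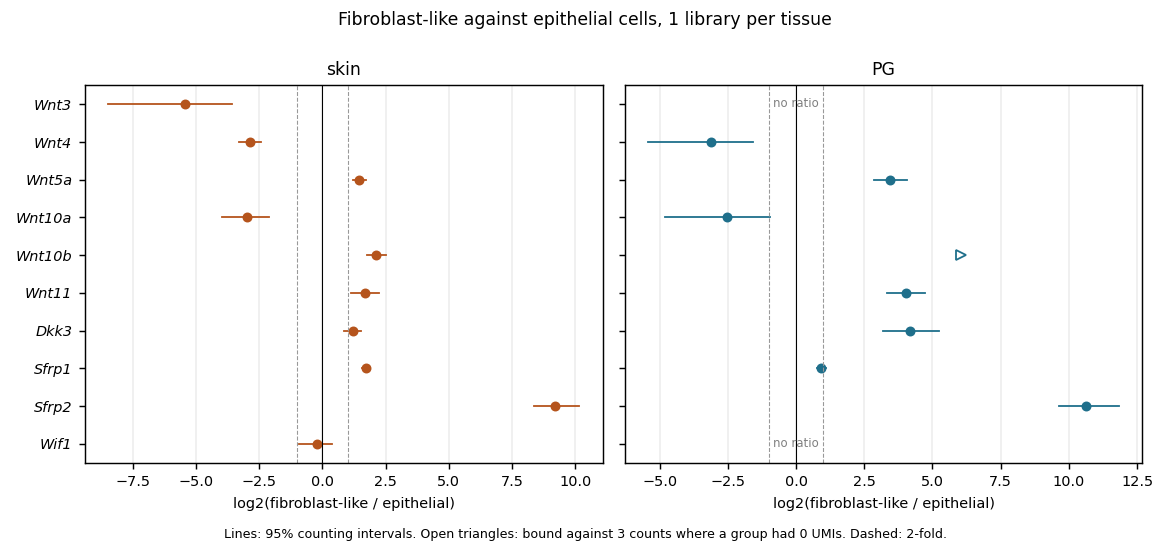
Log2 ratio of fibroblast-like to epithelial level for each member within skin (left) and within PG (right), with lines for the 95% counting interval, open triangles for a bound where 1 group had 0 UMIs, and dashed lines at 2-fold. *Wnt4* and *Wnt10a* lie left of 0 in both tissues, *Sfrp2* lies farthest right at 9.20 and 10.62, and *Sfrp1* lies beyond 2-fold in skin and just under it in PG.

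The comparison of PG with skin within matched classes sets cells of the gland against cells of whole back skin. It is not a comparison with the SGs, for which the gland has stood in, since skin gave only 34 SEB-like cells. In basal keratinocyte-like cells, 7 of the 9 members that could be compared were at least 2-fold lower in PG, against 18.7% of 13087 genes, and 1, *Sfrp1*, was higher, against 19.6% of them. *Wnt3* (471 UMIs in skin, 0 in PG) was at least 93.2-fold lower, *Wnt10b* (75 and 0 UMIs) at least 14.8-fold and *Wif1* (46 and 0 UMIs) at least 9.1-fold, each against 3 counts over the class. The skin levels behind some of these calls were near background: basal cells held 5.8 CPM of *Wif1* (4.3 to 7.8), 9.5 CPM of *Wnt10b* (7.5 to 11.9) and 11.5 CPM of *Dkk3* (9.3 to 14.1), which overlap the intervals of immune-like cells, with upper ends of 13.1, 10.1 and 10.1 CPM, and free RNA held 14.7, 7.2 and 11.6 CPM. For *Wnt5a*, basal cells of skin held 19.0 CPM (16.1 to 22.3), above immune-like cells at 5.4 CPM (1.1 to 15.9). That level was not above free RNA, at 22.8 CPM (19.1 to 27.1). *Wnt4* was 6.58-fold lower (log2 interval -2.97 to -2.48), *Wnt5a* 4.05-fold (-2.73 to -1.37), *Dkk3* 7.72-fold (-4.30 to -1.85) and *Wnt10a* 2.70-fold (-1.71 to -1.16). *Sfrp1* went the other way, 6.49-fold higher in PG (2.53 to 2.87). *Wnt11*, with 7 and 9 UMIs, had an interval of -1.27 to 1.98 and showed no difference that these counts can resolve. The members called were the same under all alternatives run, and the median log2 ratio was -2.72 over the members and 0.10 over all genes compared.

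In fibroblast-like cells, 3 of 9 members were lower in PG, *Wnt4*, *Wnt10b* and *Wif1*, against 9.82% of 11297 genes, and 3 were higher, *Wnt11*, *Sfrp1* and *Sfrp2*, against 13.7%. *Sfrp2* was 3.09-fold higher in PG (log2 interval 1.49 to 1.77), and was so in fascia cells, at 2.82-fold, and in reticular cells, at 2.97-fold. Fibroblast-like cells without a finer gate held 897 CPM of *Sfrp2* in PG and 33.5 CPM in skin (9 UMIs). In cells of at least 1000 genes and 2000 UMIs, however, the log2 ratio of *Sfrp2* in fibroblast-like cells was 0.54, under 2-fold. The median depth of fibroblast-like cells was 1827 UMIs in skin and 1362.5 in PG. *Sfrp1* was 2.10-fold higher (0.86 to 1.28). Its level was higher in fascia cells, at 413 CPM in PG and 85.7 CPM in skin. It was also higher in fibroblast-like cells without a finer gate, at 276 CPM (207 to 361) and 104 CPM (69.2 to 150). Reticular cells, with 395 CPM (340 to 456) and 339 CPM (298 to 384), overlapped. *Wnt11* was 2.27-fold higher (0.52 to 1.85, 43 and 38 UMIs). *Wnt10b* was 2.52-fold lower (-2.21 to -0.55), within fascia cells 1.82-fold. *Wnt4* was 7.48-fold lower (3 UMIs in PG, 45 in skin). Its 21.4 CPM in fibroblast-like cells of skin, however, could not be told from the 16.3 CPM of immune-like cells there at this depth. The *Wif1* level of skin fibroblast-like cells was likewise near that of free RNA. Of the other classes, duct-like cells held *Wnt3* at 8.8 CPM in skin and 0.9 CPM in PG and *Wnt4* at 57.9 and 42.3 CPM, a 1.37-fold difference (-0.86 to -0.05), so that *Wnt4* was closer between the tissues there than in basal cells.

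**Figure D5:**
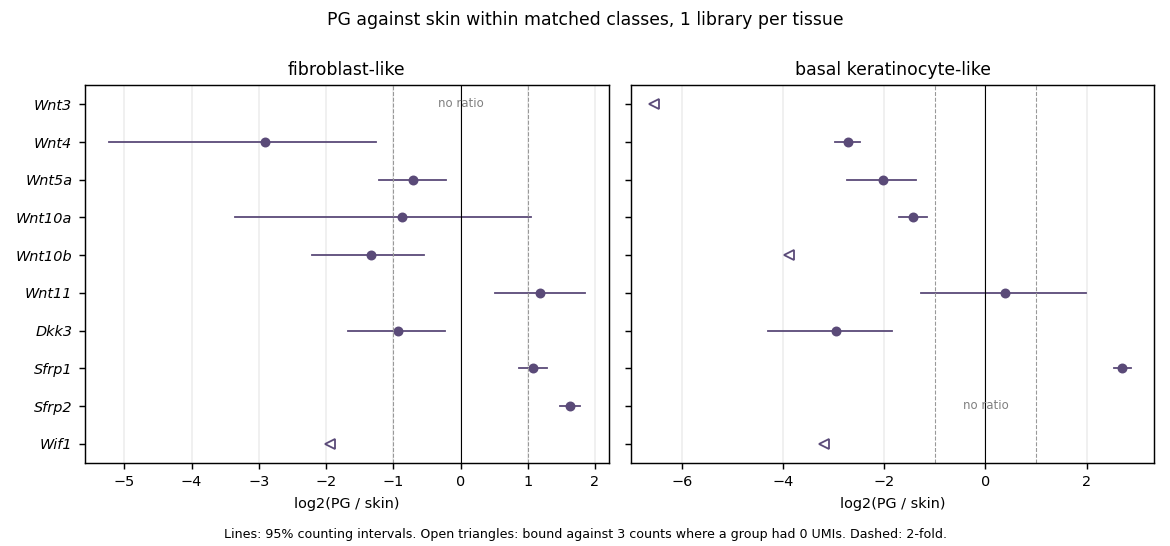
Log2 ratio of PG to skin level for each member in fibroblast-like cells (left) and basal keratinocyte-like cells (right), with 95% counting intervals, open triangles for bounds against 3 counts and dashed lines at 2-fold, from 1 library per tissue. In basal cells *Sfrp1* lies right of 0 at 2.70 while 7 members lie left of -1, and in fibroblast-like cells *Sfrp2* lies farthest right at 1.63.

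Within skin, hair matrix-like cells were compared with basal keratinocyte-like cells, since the matrix is where Wnt signalling drives hair growth. At least 2-fold higher in the matrix were 4 of 9 members, *Wnt5a*, *Wnt10b*, *Wnt11* and *Wif1*, against 15.8% of 12526 genes, and lower were 2, *Dkk3* and *Sfrp1*, against 20%. *Wnt10b* was 4.19-fold higher (log2 interval 1.55 to 2.58), and its log2 ratio stayed between 1.73 and 2.69 under all alternatives. *Wnt5a* was 3.09-fold higher by the gate, but turned to a log2 ratio of -0.72 when gates asked for more marker UMIs. *Wif1* was 6.25-fold higher, and turned to -1.03 when classes were taken from clusters. *Wnt11* rested on 4 and 9 UMIs with an interval of -0.91 to 3.08. *Sfrp1*, at 5.4 CPM in the matrix, was 8.60-fold lower (-4.33 to -2.11) and *Dkk3* 5.70-fold lower (3 against 91 UMIs, -4.82 to -0.92), while *Wnt3* and *Wnt4* differed 1.07-fold and 1.12-fold. From matrix to inner root sheath-like cells, *Wnt3* was 14.4-fold lower, *Wnt10a* 7.94-fold and *Wnt10b* 12.3-fold, whereas *Wnt5a* was 1.44-fold higher (0.13 to 0.94). The 3 lower genes had 6, 10 and 5 UMIs in inner root sheath-like cells.

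The outer sheath and bulge-like cells differed from the basal cells in other members. Against basal keratinocyte-like cells, 4 of 9 members were at least 2-fold higher, against 12.0% of 12599 genes, and 5 were lower, against 6.28%, with a median log2 ratio of -1.21 over the members and 0.14 over all genes compared. *Dkk3* was 12.6-fold (log2 interval 3.30 to 4.02), *Sfrp1* 7.19-fold (2.65 to 3.04) and *Wif1* 5.74-fold (1.94 to 3.11) higher, and *Wnt3* was 4.42-fold, *Wnt10b* 4.05-fold, *Wnt10a* 3.43-fold, *Wnt4* 2.51-fold and *Wnt5a* 2.31-fold lower. In the outer sheath and bulge-like cells, *Wnt10b* rested on 4 UMIs, at 2.3 CPM (0.6 to 6.0), and *Wnt5a* on 14, at 8.2 CPM (4.5 to 13.8). In the basal cells, *Wnt10b* at 9.5 CPM overlapped the interval of immune-like cells, and *Wnt5a* at 19.0 CPM was not above free RNA. The calls of *Wnt4* and *Wnt5a* were lost when classes were taken from clusters, at log2 ratios of -0.97 and -0.50. *Wnt11* was 11.8-fold higher by the gate on 23 UMIs in 9 cells, and turned to a log2 ratio of -0.77 with clusters. *Sfrp1* stood at 470.5 CPM (423 to 522) in the 358 cells of the class with a UMI of *Cd34* and at 60.8 CPM (27.8 to 115) in the 32 cells with *Krt75*, so the level was uneven within the class.

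Of the 13 other Wnt ligands listed, 7 had at least 10 UMIs in the gated classes of skin and 5 in those of PG. *Wnt7b*, an epidermal ligand, had 783 UMIs in skin, highest in suprabasal cells at 56.0 CPM (50.1 to 62.3), and 1 UMI in PG. *Wnt16* had 175 UMIs in skin, highest in basal cells at 16.4 CPM, and 1 in PG. *Wnt6* was present in both, with 301 UMIs in skin and 251 in PG, where basal keratinocyte-like cells led at 39.0 CPM (33.6 to 45.1). *Wnt2* was highest in fascia fibroblast-like cells of both tissues, at 84.7 CPM (68.1 to 104) and 41.0 CPM (23.0 to 67.7). *Wnt5b* had 78 UMIs in skin and 36 in PG, and *Wnt9a* 60 and 14.

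Of the 12 other secreted antagonists, 8 reached 10 UMIs in skin and 5 in PG. Dermal papilla-like cells led for *Sostdc1*, an antagonist of Wnt and BMP signals, at 808 CPM (644 to 1002), for *Dkk2* at 350 CPM (245 to 485), for *Notum*, an enzyme that removes the lipid of Wnt proteins, at 175 CPM (104 to 277), and for *Frzb* at 136 CPM (74.5 to 229). In PG, *Sostdc1* had 629 UMIs and was highest in the *Krt15 Krt6a Sox9* cells, at 157 CPM (119 to 202, 58 UMIs). There *Notum* had 5 UMIs and *Frzb* 1, and *Dkk2* was highest in reticular fibroblast-like cells at 83.2 CPM (59.1 to 114). *Igfbp4*, which binds insulin-like growth factors and can also antagonise Wnt signals, was led by fascia fibroblast-like cells in both tissues, at 1250 CPM and 2084 CPM, as was *Sfrp4*, at 179 CPM and 156 CPM.

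The 7 R-spondins and receptors listed, which leave out the gate markers *Rspo3* and *Lgr5*, all reached 10 UMIs in skin, and 5 did in PG. R-spondins strengthen Wnt signals by sparing Frizzled receptors from the ubiquitin ligases Rnf43 and Znrf3. *Rspo4* at 642 CPM (497 to 817), *Rspo1* at 419 CPM (303 to 564) and *Rspo2* at 165 CPM (96.4 to 265) were highest in dermal papilla-like cells, and in PG *Rspo2* and *Rspo4* had 0 UMIs while *Rspo1* was highest in fascia fibroblast-like cells at 62.9 CPM. Dermal papilla-like cells thus held the highest skin level of *Wif1*, *Sfrp1* and *Wnt5a* and of these R-spondins as well. The R-spondin *Rspo3*, at 1830 CPM in these cells (188 UMIs), was among the markers of their gate. The cells were therefore partly chosen for an R-spondin, and how far this raised the levels of the others was not tested. *Lgr6*, an R-spondin receptor, had 541 UMIs in skin, highest in basal cells at 44.7 CPM, and 14 in PG. Its relative *Lgr4* had 784 and 643 UMIs, with fewer UMIs of all genes in PG. *Rnf43* led in hair matrix-like cells at 46.4 CPM.

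Of the 17 receptors, 16 reached 10 UMIs in skin and 15 in PG. *Fzd2* was highest in outer sheath and bulge-like cells, at 164 CPM (145 to 184), the class that led for *Dkk3*, and *Fzd1* in dermal papilla-like cells, at 185 CPM (111 to 289). In PG, *Fzd1* and *Fzd2* were highest in reticular fibroblast-like cells at 70.4 and 46.9 CPM, and *Fzd4*, the Frizzled of endothelium, in endothelial-like cells at 205 CPM (115 to 338). *Ryk* led in inner root sheath-like cells at 149 CPM (130 to 169). The co-receptor *Lrp6* was highest in reticular fibroblast-like cells of skin at 167 CPM (139 to 199). Its partner *Lrp5* was highest in suprabasal cells of skin at 26.2 CPM (22.2 to 30.7), and in PG in endothelial-like cells on 8 UMIs. *Wls*, which carries Wnt proteins to the cell surface, was highest in hair matrix-like cells of skin at 269 CPM (243 to 296) and in fascia fibroblast-like cells of PG at 129 CPM (94.5 to 171). *Porcn*, which attaches their lipid, was highest in different classes. It reached 13.3 CPM (8.6 to 19.7, 25 UMIs) in skin epithelial cells without a finer gate and 13.7 CPM (4.4 to 31.9, 5 UMIs) in PG fascia fibroblast-like cells.

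Of the 9 genes that respond to Wnt signals, 8 reached 10 UMIs in skin and 7 in PG. *Lef1* was highest in hair matrix-like cells at 525 CPM (489 to 563), and PG had 3 UMIs of it. *Axin2* had 784 UMIs in skin and 91 in PG, *Nkd2* 365 and 14, *Apcdd1* 1196 and 58, *Bambi* 700 and 114 and *Ccnd1* 3403 and 131. These counts are not scaled to the libraries, whose kept cells held 27407186 UMIs of all genes in skin and 15270076 in PG. The highest levels of *Apcdd1*, *Bambi* and *Axin2* in skin were in the 39 dermal papilla-like cells, on few UMIs. They were 535 CPM (403 to 697, 55 UMIs), 224 CPM (142 to 336, 23 UMIs) and 107 CPM (53.5 to 192, 11 UMIs). That of *Nkd2* was in inner root sheath-like cells, at 131 CPM (113 to 150).

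The genes whose levels ran most like each member over the 22 classes of at least 50 cells, of 12019 genes compared, are given as a description only, since classes share a library and depth. *Sfrp2* ran most like *Hoxc9*, at a Pearson's r of 0.990, and *Ptgis*, at 0.985. *Sfrp1* ran like *Gas1* (0.926) and *Nbl1* (0.883), *Wnt4* like *Galnt3* (0.932) and *Hras* (0.927), *Dkk3* like *Ism1* (0.914) and *Trabd2b* (0.882), and *Wnt10b* like *Aldh1a3* (0.905) and *Slc36a4* (0.817). The likeness was lower for *Wnt3*, with *Kremen2* (0.838) and *Lancl1* (0.827), *Wnt5a*, with *Srgap1* (0.832) and *Trpm7* (0.831), *Wnt10a*, with *Ajuba* (0.812) and *Marveld3* (0.804), and *Wnt11*, with *Trnp1* (0.804) and *Fndc4* (0.752). *Wif1* ran like *Ccdc136* (0.841) and *Bnc1* (0.840), over classes that leave out the 39 dermal papilla-like cells, where its level was highest.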

How the data were processed

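The deposited files hold raw UMI counts per gene and droplet for 1 library per tissue, made with Cell Ranger 4 per the file headers on mm10 per the labels. The matrices list every barcode, before the authors' filters. The skin library lists 6794880 possible barcodes and the PG library 737280, although 1 kit is named for both, so the kit chemistry may have differed between them, and tissue and chemistry cannot be told apart in any comparison of PG with skin. Totals were 37675226 and 26288071 UMIs. Cells needed 500 genes, 1000 UMIs and at most 10% mitochondrial UMIs (232 skin and 662 PG barcodes fell to the last limit). Classes were gated on markers (149 of 150 matched), and cells with at least 3 markers of a second lineage were set aside as mixed (213 and 115). Doublets were not scored otherwise, except in an alternative that removed the highest Scrublet scores (634 skin and 177 PG cells). Counts were summed per class with exact Poisson intervals. Ratios have exact binomial (Clopper-Pearson) intervals, and 0 UMIs were read as at most 3 counts per class. A gene was called at 2-fold or more with at least 10 UMIs over both groups. Shares of cells came from thinning to 1000 UMIs. Immune-like cells served as background. Named were all members, up to 6 genes per pathway list by highest level, and the 2 genes most like each member (log2 of CPM + 10, genes of at least 100 UMIs). Other genes named in the text are markers. The members and lists were chosen with earlier results of these data known. Python 3.11.15, scipy 1.17.1 and scanpy 1.11.5 were used, and functions were tested on simulated data. Gene positions are from GENCODE (GRCm38).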

Additional observations from a re-analysis of the deposited data

How the results depend on the processing

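The counts of members past 2-fold were recomputed under 11 alternatives (deeper cells, a lower mitochondrial limit, doublet removal, an upper UMI limit, stricter gates, Leiden clusters, equal weight per cell, equal weight per epithelial class, scaling without mitochondrial and ribosomal protein genes, free RNA subtraction and a higher UMI minimum). Of 132 such counts, 129 stayed within 1.5 times the reported count. With Leiden clusters, 5 members instead of 3 were lower in PG fibroblast-like cells, adding *Wnt3* and *Dkk3*, and 1 instead of 4, *Wnt10b*, was higher in hair matrix-like cells, and 3 instead of 5, *Wnt3*, *Wnt10a* and *Wnt10b*, were lower in outer sheath and bulge-like cells. Of 588 log2 ratios, 536 stayed in their counting interval or, for bounds, past 2-fold, 48 moved and 4 reversed. The reversed ones were, for hair matrix-like against basal keratinocyte-like cells, *Wnt5a* at -0.72 with stricter gates and -0.57 with clusters, and *Wif1* at -1.03 with clusters, and, for outer sheath and bulge-like against basal cells, *Wnt11* at -0.77 with clusters. The cause was not tested. Of 194 CPM values in the highest class, 167 stayed in their interval. These totals include values that an alternative could not change. The higher UMI minimum and equal weight per epithelial class left 18 CPM values each fixed in advance. The higher UMI minimum also left 50 log2 ratios fixed, since it only drops genes. Equal weight per epithelial class could change only comparisons with the pooled epithelial cells. The dermal papilla-like and SEB-like cells of skin formed no cluster of their own, nor did the *Krt15 Krt6a Sox9* cells of PG. Their levels therefore have no value with clusters. Of the 8899 skin cells, 6495 lay in a cluster named for the class of their own gate, and of the 4699 PG cells 3163. In PG, clusters named for basal keratinocytes held 2551 cells, against 1601 by the gate. No paired analysis was possible because each tissue had 1 library. Low counts limit *Wnt11*, *Dkk3* in PG and the SEB-like cells of skin.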
